A study of Mus musculus with 2 samples.

Results

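The regulatory T cells of mouse colon tumours are described here as 334 cell barcodes, 118 from a Gsk3b (IEC-/-) library and 216 from a Gsk3b (IEC+/+) library, called the KO library and the WT library below. A barcode was a member when it had at least 1000 UMIs (unique transcript molecules), at least 200 genes and at most 25% mitochondrial UMIs, when the 6 T cell receptor and CD3 genes Cd3d, Cd3e, Cd3g, Trac, Trbc1 and Trbc2 together gave at least 3 UMIs and at least 0.1% of its UMIs, and when it had at least 1 Foxp3 UMI. The members were thus chosen by their own UMIs of the T cell genes and Foxp3. The members are 118 of 740 T barcodes and of 11466 passing barcodes in the KO library, and 216 of 810 T barcodes and of 10638 passing barcodes in the WT library. Both libraries came from colon tumours of mice given AOM and DSS (azoxymethane, a carcinogen, and dextran sodium sulfate, which inflames the colon), and were made from digested tumours with 10x Genomics 3′ chemistry, version 3. By their labels the mice differed in Gsk3b in IEC, the usual short form for intestinal epithelial cells, and the labels name no change in T cells. The driver of the deletion, the age and sex of the mice and the number of animals in each library are not given in the sources used here. With 1 library per genotype no difference between genotypes has a replicate check, so no p-value is given and every interval is a 95% interval that covers counting error only.

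Regulatory T cells are CD4 T cells that restrain immune responses, and the transcription factor FOXP3 defines them. They deplete interleukin-2 through its high-affinity receptor, block co-stimulation through CTLA4 and release interleukin-10 and other inhibitory factors. In the colon a large part of them have left the lymphoid state for a tissue state. A form with the interleukin-33 receptor ST2 (Il1rl1), the receptor KLRG1 and the factor GATA3 is linked to tissue repair, and a form rich in interleukin-10 is linked to tolerance of the microbiota.

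The KO matrix held 156641780 UMIs and the WT matrix 164574326 UMIs over 32285 genes. The member barcodes had a median of 3091.5 UMIs in the KO library (range 1002 to 35063) and 3724 in the WT library (range 1465 to 35930), and medians of 1600 and 1795.5 genes. Their UMIs summed to 580513 in the KO and 1142762 in the WT library, and the 3 deepest barcodes held 16.9% and 8.11% of these sums. All expression levels below are CPM, the UMIs of a gene scaled to an equal total for every sum. Other T barcodes, with no Foxp3 UMI, numbered 622 in the KO and 594 in the WT library, at medians of 3583.5 and 3717.5 UMIs. Gsk3b, the targeted gene, had 176 CPM in KO and 192 CPM in WT members, a log2 ratio of -0.13 (-0.48 to 0.22), from 59 and 107 barcodes. It was also detected in 73.1% of KO and 76.6% of WT epithelial barcodes. A count from the 3′ end need not lie in the deleted part, so it does not check the labels. The libraries shared 37 barcode sequences among passing barcodes and 0 among T barcodes. Doublets were not removed, and 9 KO members (7.63%) and 28 WT members (13.0%) had at least 5 UMIs and 0.5% of their UMIs from the markers of another cell class, most often neutrophils (4 and 12) and epithelial cells (4 and 10).

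Foxp3, the defining gene (chrX:7573644-7595245, plus strand, GRCm38), gave 224 UMIs in the KO and 395 in the WT members, which is 386 and 346 CPM. Because the rule used it, these values are a description. Exactly 1 Foxp3 UMI was present in 64 KO and 109 WT members, and 2 or more in 54 and 107, with a highest count of 8 in the KO and 7 in the WT library. Just outside the rule, 63 KO and 98 WT passing barcodes had a Foxp3 UMI but too few T cell UMIs, of which 28 and 43 had 0. Just inside it, 8 KO and 6 WT members had exactly 3 T cell UMIs. Foxp3 UMIs were found in 0.481% of KO and 0.855% of WT epithelial barcodes, at medians of 15022.5 and 16324.5 UMIs. Because these barcodes had no UMI of the T cell genes, doublets with detected T cell genes were left out. The values are thus not a full level of free RNA and doublets in cells that should lack the gene. The RefSeq promoter windows of Foxp3 and Il1rl1 follow, since a UMI of the first gene chose the members and a UMI of the second names a subset of them in which the GATA factor gene Gata3 was higher. Each runs from 250 bases before to 50 bases after a start site on GRCm38.p6, 5′ to 3′ on the plus strand, in lower case with the GATA-type letters GATAA, on either strand (TTATC when read on the other), in capitals.
Foxp3 window 1, chrX:7579426-7579725: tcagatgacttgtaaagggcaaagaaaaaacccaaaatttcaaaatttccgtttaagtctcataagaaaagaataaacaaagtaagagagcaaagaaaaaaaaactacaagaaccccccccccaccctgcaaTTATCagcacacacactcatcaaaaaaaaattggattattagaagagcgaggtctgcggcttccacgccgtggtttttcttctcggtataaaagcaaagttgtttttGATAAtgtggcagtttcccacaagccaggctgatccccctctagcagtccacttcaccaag
Foxp3 window 2, chrX:7580233-7580532: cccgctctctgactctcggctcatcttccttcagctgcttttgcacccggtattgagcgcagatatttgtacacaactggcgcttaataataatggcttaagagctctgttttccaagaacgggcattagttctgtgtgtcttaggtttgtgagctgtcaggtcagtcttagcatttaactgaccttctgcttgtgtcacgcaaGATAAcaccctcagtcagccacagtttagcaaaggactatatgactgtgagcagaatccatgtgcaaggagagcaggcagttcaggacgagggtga
Il1rl1 window 1, chr1:40429320-40429619: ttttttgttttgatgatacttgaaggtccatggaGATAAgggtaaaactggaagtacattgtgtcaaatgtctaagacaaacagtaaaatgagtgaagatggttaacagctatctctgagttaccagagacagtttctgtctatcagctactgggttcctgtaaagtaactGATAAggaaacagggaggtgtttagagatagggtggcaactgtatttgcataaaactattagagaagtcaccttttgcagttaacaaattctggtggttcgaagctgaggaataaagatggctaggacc
Il1rl1 window 2, chr1:40439379-40439678: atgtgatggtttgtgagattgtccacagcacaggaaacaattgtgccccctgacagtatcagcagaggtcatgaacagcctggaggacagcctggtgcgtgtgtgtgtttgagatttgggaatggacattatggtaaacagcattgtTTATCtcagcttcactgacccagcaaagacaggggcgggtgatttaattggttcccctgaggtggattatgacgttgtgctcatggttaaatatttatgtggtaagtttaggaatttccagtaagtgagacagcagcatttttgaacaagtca
The Foxp3 windows hold 2 and 1 such matches and the Il1rl1 windows 2 and 1. Of 32851 mouse promoter windows of this length 25.4% hold at least 1 match and 5.27% at least 2, so a match is common, and it is a run of letters and not a binding site. The forkhead letters GTAAACA are in the second Il1rl1 window, and in 3.65% of all windows. Reads from the 3′ end do not tell the start sites of a gene apart.

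The members carried the other markers of regulatory T cells. Ikzf2, which encodes the factor Helios, was detected in 73.7% of KO and 81.0% of WT members, against 46.8% and 51.7% of the other T barcodes of each library. Ctla4, the co-stimulation blocker, was detected in 95.8% of KO and 90.3% of WT members, against 61.6% and 76.3% of other T barcodes. Tnfrsf4, the receptor OX40, was detected in 81.4% of KO and 84.3% of WT members, against 32.0% and 35.4% of other T barcodes. Counting the 6 given markers other than Foxp3 (Ikzf2, Ctla4, Tnfrsf4, Il1rl1, Klrg1 and Il10), 3 or more were present in 90 KO members (76.3%, 67.6 to 83.6) and 177 WT members (81.9%, 76.2 to 86.8). This compares with 130 KO (20.9%) and 144 WT (24.2%) of the other T barcodes, so barcodes with several of these markers also lie outside the rule. A Cd8a, Cd8b1 or Trdc UMI, which marks CD8 or gamma-delta T cells, was present in 10 KO (8.47%) and 17 WT members (7.87%). Cd4 was detected in 32.2% of KO and 38.4% of WT members.

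**Figure D1:**
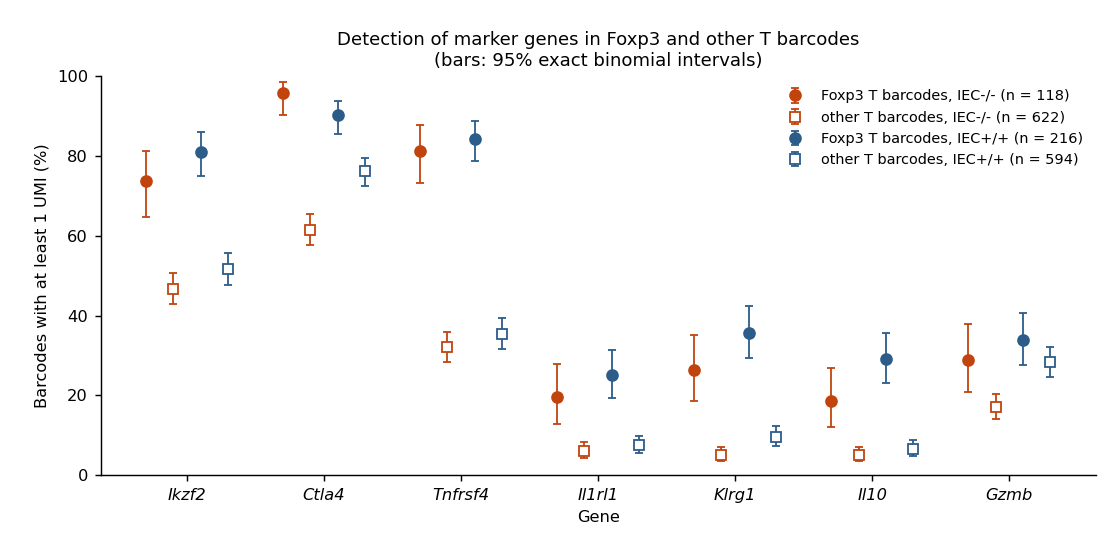
Share of barcodes with at least 1 UMI of each gene (y axis, %) for Foxp3 T barcodes (filled circles) and other T barcodes (open squares) of the IEC-/- and the IEC+/+ library, with 95% exact binomial intervals. Ikzf2, Ctla4 and Tnfrsf4 were detected in 73.7% to 95.8% of Foxp3 T barcodes, while Il1rl1, Klrg1, Il10 and Gzmb were detected in 18.6% to 35.6% of them.

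Foxp3 barcodes made up a smaller share of T barcodes in the KO library. The share was 15.9% (118 of 740, 13.4 to 18.8) in the KO and 26.7% (216 of 810, 23.6 to 29.9) in the WT library, and the counting intervals did not overlap. With every T barcode thinned to 2000 UMIs, which left out 59 KO and 69 WT barcodes, the shares were 10.9% and 17.2%. Among T barcodes with a Cd4 UMI they were 22.5% (38 of 169, 16.4 to 29.5) and 38.2% (83 of 217, 31.8 to 45.1). Of all passing barcodes the members were 1.03% in the KO and 2.03% in the WT library, where T barcodes were 6.45% and 7.61%. Fewer such cells and less Foxp3 RNA per cell cannot be told apart for cells near 1 UMI of the gene.

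Set against the other T barcodes of the same library, the members had higher RNA of receptors and factors known from regulatory T cells and lower RNA of gamma-delta, type 17 and cytotoxic genes. A gene was counted as past the fold when it differed 2-fold or more in the same direction in both libraries, which 1.32% of 9706 measured genes did upward and 1.86% downward. Of the regulatory T cell identity list 5 of 18 measured genes passed it upward and 0 downward, and the list's median log2 ratio was 1.34 in the KO and 0.66 in the WT library, against 0.025 and 0.040 over all measured genes. Ikzf2 had 1502 CPM in members and 573 in other T barcodes of the KO library, and 1103 against 522 in the WT library, log2 ratios of 1.39 (1.27 to 1.51) and 1.08 (0.97 to 1.19). Itgb8, an integrin chain that activates TGF-beta, had 207 against 28.4 CPM in the KO and 239 against 70.4 in the WT library. Izumo1r, the folate receptor FR4, had 110 against 29.4 CPM in the KO and 121 against 33.1 in the WT library. Ctla4 stood 1.28 higher on the log2 scale in the KO library but 0.45 higher in the WT library, where the other T barcodes already had 1156 CPM. Il2ra, the high-affinity interleukin-2 receptor chain, stood 1.21 and 0.98 higher.

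Of 19 measured genes of the tumour necrosis factor family and its receptors 4 passed the fold upward and 3 downward. Tnfrsf4 had 694 CPM in members against 246 in other T barcodes of the KO library and 822 against 236 in the WT library. Tnfrsf18, the receptor GITR, had 501 against 175 CPM in the KO and 409 against 157 in the WT library. Tnfrsf8 (CD30) stood 1.71 higher in the KO and 1.65 higher in the WT library on the log2 scale, and Tnfrsf13b (TACI), better known from B cells, 2.49 and 2.10. The 3 that passed downward were Cd40lg, Tnfsf11 and Fasl, ligands of the same family, which are named here after their values were seen.

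Of 19 measured suppressive effectors 3 passed the fold upward (Il10, Ebi3 and Itgb8) and Gzma passed it downward. Il10 had 124 CPM in members and 27.0 in other T barcodes of the KO library, and 167 against 38.1 in the WT library, log2 ratios of 2.20 (1.72 to 2.68) and 2.13 (1.78 to 2.50). Il10 UMIs were also found in 9.33% of KO and 6.27% of WT neutrophil barcodes, above the 4.98% and 6.57% of other T barcodes in the KO library only. Gzmb, a cytotoxic granule protease that some regulatory T cells use, was 0.78 higher in members of the KO library and 0.13 lower in members of the WT library, where the interval of the difference ran from -0.28 to 0.015. Of 18 measured tissue and repair genes Il1rl1, Klrg1 and the chemokine receptor gene Ccr8 passed upward and none downward. Il1rl1 had 145 CPM in members against 22.2 in other T barcodes of the KO library, and 108 against 43.1 in the WT library. Klrg1 had 126 against 19.5 CPM in the KO and 142 against 50.02 in the WT library. Areg, which encodes the epithelial growth factor amphiregulin, was 1.00 higher in the KO and 0.45 higher in the WT library.

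Of 21 measured chemokine receptor and adhesion genes 4 passed upward, Ccr6, Ccr8, Ccr9 and Itgae, and 0 downward, with Ccr6, Ccr8 and Itgae chosen for naming after their values were seen. Itgae, the CD103 integrin chain that holds T cells at epithelium, had 134 CPM in members against 41.0 in other T barcodes of the KO library and 125 against 53.9 in the WT library. Cxcr6, a homing receptor of tissue-resident T cells, had 44.8 CPM in members against 278 in other T barcodes of the KO library and 251.1 against 452 in the WT library. Its log2 ratios were -2.64 (-3.26 to -2.07) and -0.85 (-1.04 to -0.66). Penk, the gene of the opioid peptide precursor proenkephalin, had 707 CPM in members against 198 in other T barcodes of the WT library, and 274 against 213 in the KO library.

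Ranked over all genes by the interval bound nearest 0 in the weaker library, the highest were Sorcs1, Ky, Il10, Plagl1, Tnfrsf13b, Sh3rf1, Itgb8, Izumo1r, Pcsk1 and Tnfrsf4, followed by Myo3b, Cep85l, Hopx, Bmyc and Laptm4b. Sorcs1, a sorting receptor best known from neurons, had 72.3 CPM in members against 5.13 in other T barcodes of the KO library and 97.1 against 9.23 in the WT library, from only 7 KO and 23 WT member barcodes, and 25 of its 42 KO UMIs sat in 1 of them. Ky had 93.0 against 12.3 CPM in the KO and 156 against 34.2 in the WT library. Hopx, a homeodomain-like regulator, was broad, with UMIs in 79 KO and 160 WT members and log2 ratios of 1.64 and 1.36. The lowest were genes of gamma-delta and innate-like T cells (Trdc, Tcrg-C1, Cd163l1, Blk and Zbtb16), the cytokine genes Il17a and Ifng, the granzymes Gzmk and Gzma, and Abi3bp. Trdc had 18.9 CPM in members against 304 in other T barcodes of the KO library and 13.1 against 714 in the WT library. Ifng had 6.89 against 260 CPM in the KO and 19.3 against 170 in the WT library. Tbx21, the type 1 master factor, was 2.47 lower in the KO and 3.23 lower in the WT library, and Tcf7, a factor of naive and memory T cells, 1.57 and 2.63 lower. Of the 14 type 1 genes 6 passed downward, and of 9 measured markers of CD4, CD8, gamma-delta and natural killer cells 8 did. No gene of the heat shock, immediate early, glycolysis and oxidative phosphorylation lists passed the fold in both libraries.

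**Figure D2:**
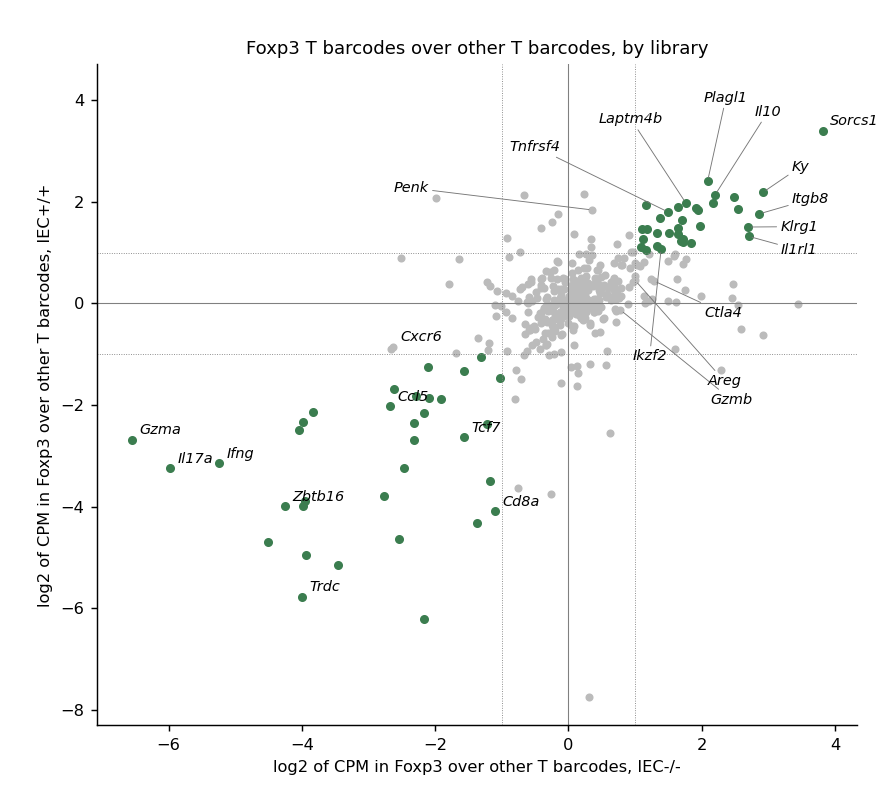
Log2 ratio of CPM in Foxp3 T barcodes over other T barcodes in the IEC-/- library (x axis) and the IEC+/+ library (y axis), 1 point per measured named or listed gene. Green points differ 2-fold or more in the same direction in both libraries (dotted lines), with Sorcs1 at 3.82 and 3.39 and Trdc at -4.00 and -5.76. The x value of Gzma, with 0 UMIs in IEC-/- members, is a bound set at 3 counts.

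Within the members, UMIs of Il1rl1 or Klrg1 and UMIs of Il10 or Gzmb marked overlapping parts. Il1rl1 or Klrg1 was detected in 39 KO members (33.1%, 24.7 to 42.3) and 100 WT members (46.3%, 39.5 to 53.2). Il10 or Gzmb was detected in 45 KO members (38.1%, 29.4 to 47.5) and 99 WT members (45.8%, 39.1 to 52.7). Thinned to 2000 UMIs per barcode, which left out 12 KO and 17 WT members, the first share was 25.7% and 32.4% and the second 33.0% and 36.8%. The intervals of both shares overlapped between the libraries. Only Il1rl1 or Klrg1 was seen in 27 KO (22.9%) and 61 WT members (28.2%), only Il10 or Gzmb in 33 (28%) and 60 (27.8%), both in 12 (10.2%) and 39 (18.1%), and neither in 46 (39.0%, 30.1 to 48.4) and 56 (25.9%, 20.2 to 32.3).

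**Figure D3:**
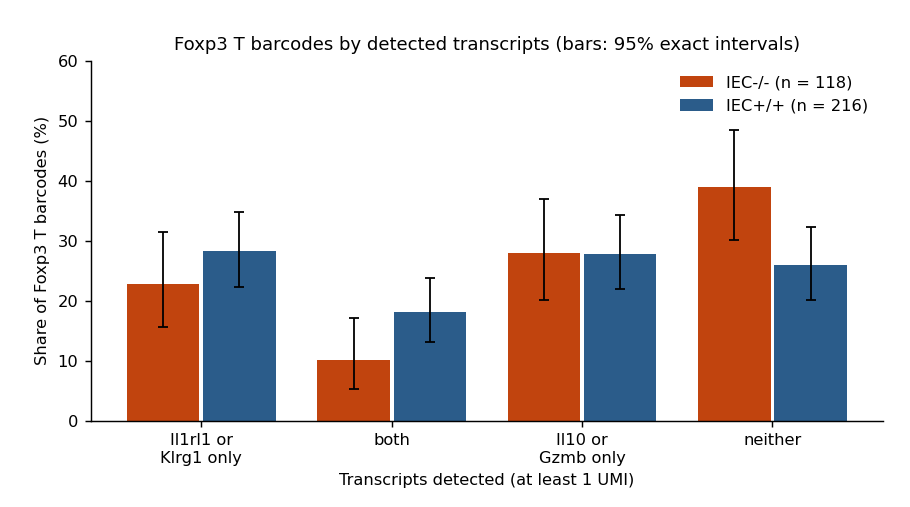
Share of Foxp3 T barcodes (y axis, %) by which transcripts had at least 1 UMI, for the IEC-/- library (left bar of each pair) and the IEC+/+ library, with 95% exact intervals. Barcodes with neither kind of transcript were 39.0% in the IEC-/- and 25.9% in the IEC+/+ library.

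The genes of each pair were detected together. Klrg1 was detected in 65.2% (15 of 23) of KO members with Il1rl1 and 16.8% of those without, and in 57.4% (31 of 54) against 28.4% in the WT library. Gzmb was detected in 50% (11 of 22) of KO members with Il10 and 24.0% of those without, and in 58.7% (37 of 63) against 23.5% in the WT library. Across the pairs the order was the opposite for Il10, which was detected in 6.45% (2 of 31) of KO members with Klrg1 and 23.0% of those without, and in 22.1% (17 of 77) against 33.1% in the WT library. Thinned to 2000 UMIs, these Il10 shares were 5.27% against 20.1% in the KO and 14.8% against 21.8% in the WT library. Gzmb with and without Klrg1 differed less, at 32.3% against 27.6% in the KO and 31.2% against 35.3% in the WT library.

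The subsets differed in depth from the other members. Medians were 3659 UMIs in the Il1rl1 or Klrg1 subset against 2928 in the other KO members, and 3693.5 against 3744 in the WT library. They were 3659 in the Il10 or Gzmb subset against 2944 in the other KO members, and 4932 against 3142 in the WT library, and the part of depth in the results was not tested.

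The Il1rl1 or Klrg1 subset was richer in Penk, Gata3, Ikzf2 and Nrp1 RNA than the other members of its library. The 2-fold rule was passed in both libraries by 0.357% of 4768 measured genes upward and 0.231% downward. Penk had 538 CPM in the subset against 99.9 in the other KO members, and 1209 against 269 in the WT library, log2 ratios of 2.43 (1.88 to 3.01) and 2.17 (1.92 to 2.43). Penk UMIs were present in 16 of the 39 KO subset barcodes and 46 of the 100 in the WT library. Gata3, the GATA factor known from type 2 and tissue-repair cells, had 221 against 108 CPM in the KO and 207 against 91.8 in the WT library (1.03 and 1.17). Nrp1, the surface receptor neuropilin-1, had 130 against 51.4 CPM in the KO and 69.5 against 22.9 in the WT library. Ikzf2 had 1954 against 1205 CPM in the KO and 1449 against 802 in the WT library, which is under 2-fold in both. Cd83 stood 1.09 and 1.34 higher, Ctla2a, a protease inhibitor gene, 1.00 and 0.84, and Rora, a nuclear receptor of tissue lymphocytes, 0.53 and 0.50.

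Lower in the same subset were Il10, the receptor genes Il23r and Il6st, Ccr7, Nebl and Maf. Il10 had 30.4 CPM in the subset against 186 in the other KO members and 115 against 213 in the WT library, log2 ratios of -2.61 and -0.90. Il23r, the receptor of the type 17 cytokine interleukin-23, had 78.2 against 240 CPM in the KO and 182 against 369 in the WT library. Ccr7, which guides T cells to lymph nodes, had 30.4 against 154 CPM in the KO and 30.04 against 70.5 in the WT library. Maf, a factor needed for interleukin-10 in T cells, had 274 against 474 CPM in the KO and 344 against 575 in the WT library. Foxp3 itself differed by -0.05 and 0.07 with intervals across 0, Areg by 0.23 and -0.30, and Gzmb by 0.47 and -0.19. Among the genes ranked highest, Cxcl1, Cd74 and Thbs1 were those of other cell classes. The 11 macrophage markers summed to 4406 CPM in the WT subset against 688 in its other members, and to 261 against 345 in the KO library. Neutrophil markers summed to 838 against 2570 CPM in the KO and 4750 against 3581 in the WT library, and fibroblast markers to 643 against 117 in the KO and 43.2 against 116 in the WT library. The part of these markers in the result was not tested. Without barcodes holding another class's markers, Penk stood 2.28 and 2.21 higher, Gata3 0.88 and 1.504, and Cd74 0.76 and 0.70.

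The Il10 or Gzmb subset was richer in Zeb2, Ccr2 and Cxcr6 RNA than the other members of its library, and poorer in Penk, Gata3, Nrp1 and Ikzf2 RNA. The 2-fold rule was passed in both libraries by 1.03% of 4768 measured genes upward and 1.01% downward. Zeb2, a factor of terminal effector cells, had 500 CPM in the subset against 135 in the other KO members and 752 against 290 in the WT library, log2 ratios of 1.88 (1.37 to 2.42) and 1.37 (1.10 to 1.66). Of 16 measured homing genes 4 passed upward, among them the inflammatory chemokine receptor genes Ccr1 and Ccr2 with Cxcr6, and 2 downward, Itgae and Ccr6. The median of these 16 was 0.17 in the KO and -0.14 in the WT library. Ccr2 had 266 against 83.8 CPM in the KO and 253 against 93.0 in the WT library. Cxcr6 had 70.3 against 22.6 CPM in the KO and 330 against 131 in the WT library. Without barcodes holding another class's markers, Zeb2 stood 1.71 and 1.35 higher, Ccr2 2.09 and 1.75, and Cxcr6 1.47 and 1.74. Areg was 0.58 higher in the KO and 1.11 higher in the WT subset, with 2527 CPM against 1167 in the WT library. Maf was 0.29 and 0.99 higher.

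Lower in the Il10 or Gzmb subset were Tnfsf8, Penk, Gata3, Nrp1, Ikzf2 and inhibitory receptor genes. Tnfsf8, the ligand of CD30, had 118 CPM in the subset against 625 in the other KO members and 86.8 against 346 in the WT library. Penk had 104 against 422 CPM in the KO and 383 against 1203 in the WT library. Gata3 had 74.0 against 222 CPM in the KO and 72.3 against 257 in the WT library, log2 ratios of -1.59 and -1.83. Ikzf2 was 0.80 lower in the KO and 1.28 lower in the WT library, and Itgae 1.34 and 1.25 lower. Of 14 measured checkpoint genes 0 passed upward and 3 downward, among them Pdcd1 (PD-1) at -1.85 and -2.39 and Btla at -1.84 and -2.72. Pdcd1, Btla, Itgae, Ccr1 and Ccr6 are named here after their values were seen. The interferon-induced genes Ifit1 and Cxcl10 were also lower, at -1.38 and -1.71 for Ifit1 and -1.60 and -1.28 for Cxcl10. The highest-ranked genes of this subset, Slc7a11, Il1b, Cxcl1, Ifitm3, Cxcl2, Ifitm2 and S100a8, are ones that neutrophils and macrophages express. The 9 neutrophil markers summed to 2483 CPM in the KO subset against 1360 in its other members, and to 5684 against 1741 in the WT library. The macrophage markers summed to 366 against 264 CPM in the KO and 3446 against 853 in the WT library, and the epithelial markers to 2228 against 3655 in the KO and 3498 against 1688 in the WT library. Endothelial markers summed to 559 against 87.0 CPM and fibroblast markers to 599 against 87.0 in the KO library, and to 73.8 against 73.1 and 98.4 against 57.6 in the WT library. The part of all these markers in the result was not tested. Without barcodes holding another class's markers, the log2 ratios of Il1b were 0.14 in the KO and 0.71 in the WT library, those of S100a8 0.50 and 0.04, and those of Slc7a11 2.09 and 0.17.

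**Figure D4:**
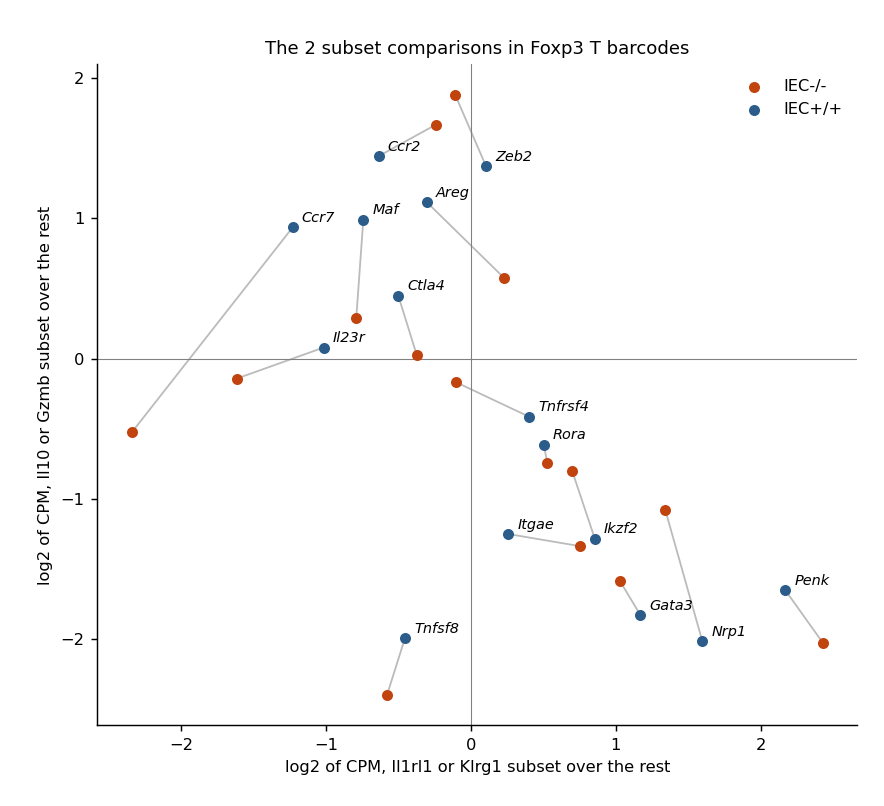
For selected genes, the log2 ratio of CPM in the Il1rl1 or Klrg1 subset over the other Foxp3 T barcodes (x axis) and in the Il10 or Gzmb subset over the others (y axis), with a line joining the IEC-/- and the IEC+/+ value of each gene. Penk, Nrp1, Gata3 and Ikzf2 lie at the lower right in both libraries, and Maf at the upper left. The subsets share 12 IEC-/- and 39 IEC+/+ barcodes, and the genes shown were chosen after their values were seen.

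Between the libraries, KO members had lower RNA of 7 of 18 suppressive effector genes than WT members, and higher RNA of 10 of 20 interferon-gamma-induced and 17 of 25 proliferation genes. Penk, Areg, Cxcr6 and Ccr9 were among the lower genes. A gene was counted when KO and WT CPM differed 1.5-fold or more. Of 8245 measured genes 10.9% were higher in KO members by this rule and 11.9% lower, and in other T barcodes 9.07% of 11172 were higher and 8.4% lower. Of 18 identity genes 2 were higher and 1 lower, with a median log2 ratio of -0.17 (0.016 over all measured genes). Ikzf2 had 1502 CPM in KO and 1103 in WT members, a log2 ratio of 0.44 (0.32 to 0.57), against 0.13 in other T barcodes. Nrp1 was 0.89 higher (0.29 to 1.49) at 82.7 against 44.6 CPM, and Socs2, an inhibitor of cytokine signalling, 0.75 higher. Capg, an actin-capping protein gene, had 444 CPM in KO and 724 in WT members, and differed alike in other T barcodes (-0.70 in members, -0.89 in other T). Tnfrsf4 (694 and 822 CPM), Il2ra (465 and 605 CPM) and Ctla4 (1413 and 1574 CPM) stayed within 1.5-fold.

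Suppressive effector genes lay lower in KO members. Of 18 measured 0 were higher and 7 lower by the rule, with a median log2 ratio of -0.39, and in other T barcodes the median was -0.62. Penk had 274 CPM in KO and 707 in WT members, a log2 ratio of -1.37 (-1.62 to -1.12), while in other T barcodes it was 0.11 (-0.06 to 0.28). It was detected in 26 of 118 KO and 72 of 216 WT members, and the difference was present inside the Il1rl1 or Klrg1 subset (538 and 1209 CPM) and outside it (99.9 and 269 CPM). Gzmb had 286 CPM in KO and 479 in WT members (-0.74, -1.003 to -0.49), and in other T barcodes the ratio was wider at -1.65. Gzma had 0 UMIs in KO members and 198 in WT members, a log2 ratio of at most -5.07 when the KO count is set at 3 over the group, and 76 of the WT UMIs sat in 1 barcode. Lag3, an inhibitory receptor gene, had 24.1 CPM in KO and 64.8 in WT members. Il10 was 0.43 lower (-0.84 to -0.03) at 124 against 167 CPM. Il1r2, the interleukin-1 decoy receptor, had 203 CPM in KO and 396 in WT members.

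Single repair and tissue genes differed in both directions. Of 18 measured 2 were higher and 4 lower, beside 10.9% and 11.9% of all measured genes. Their median was -0.06, against -0.46 in other T barcodes. Areg had 796 CPM in KO and 1990 in WT members (-1.32, -1.47 to -1.18), and the same ratio in other T barcodes was -1.87. Free RNA carried 279 CPM of Areg in the KO and 213 CPM in the WT library. The part of free RNA and of other cell classes in the Areg values was not tested. Tff1, a trefoil peptide gene better known from epithelium, had 305 CPM in KO and 564 in WT members and was detected in 28.8% and 52.8% of them, against 1.04% and 1.83% of epithelial barcodes. In other T barcodes Tff1 was also lower in the KO library, at 162 against 222 CPM (-0.46, -0.64 to -0.28). Il1rl1 was 0.43 higher in KO members by CPM (0.01 to 0.84), but it was detected in fewer of them, 19.5% (23 of 118) against 25% (54 of 216) of WT members. In other T barcodes it was 0.96 lower in the KO library. Klrg1 and Gata3 did not differ beyond counting error in members, at -0.17 (-0.59 to 0.23) and 0.08 (-0.31 to 0.46). Il18r1, the interleukin-18 receptor chain, had 376 CPM in KO and 208 in WT members (0.85, 0.58 to 1.12), with -0.13 in other T barcodes.

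The homing receptor genes Cxcr6 and Ccr9 were lower in KO members, and Ccr7, known from recirculating T cells, was higher. Of 21 measured homing genes 3 were higher and 4 lower, beside 10.9% and 11.9% of all measured genes. Cxcr6 had 44.8 CPM in KO and 251.1 in WT members, from 14 and 86 barcodes, a log2 ratio of -2.49 (-3.13 to -1.91), against -0.70 (-0.83 to -0.57) in other T barcodes. Ccr9, the small-intestinal homing receptor gene, had 13.8 CPM in KO and 91.9 in WT members, from 4 and 43 barcodes (-2.74, -3.99 to -1.71), and the ratio in other T barcodes was alike at -2.85. Ccr1 had 53.4 CPM in KO and 141 in WT members. Itga4 and Itgb7, the chains of the gut-homing integrin, stayed within 1.5-fold at -0.23 and 0.07. Ccr7 had 105 CPM in KO and 51.6 in WT members (1.03, 0.48 to 1.57). S1pr1, the receptor for exit from lymph nodes, had 41.3 against 15.8 CPM, with 14 KO and 15 WT UMIs in the Il10 or Gzmb subset. The KO barcodes of that subset also held 559 CPM of endothelial markers against 87.0 in the other KO members, and the part of these markers was not tested. Of 13 naive and central genes 7 were higher and 2 lower, with a median of 0.61, and in other T barcodes it was 0.45. The 2 lower ones were Satb1 (277 and 454 CPM) and Txk. Tcf7, 1.53 higher in KO members, was 0.31 higher without the 3 deepest members of each library.

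Interferon-gamma-induced genes lay higher in KO members, 10 of 20 by the rule and 0 lower, with a median log2 ratio of 0.60, against 0.16 in other T barcodes. Iigp1, an immunity-related GTPase gene, had 115 CPM in KO and 11.4 in WT members (3.34, 2.47 to 4.32), from 15 and 5 barcodes with 28 of the 67 KO UMIs in 1 of them, and 0.78 in other T barcodes. Irf1 had 189 CPM in KO and 81.4 in WT members (1.22, 0.81 to 1.63), from 41 and 63 barcodes. Igtp had 91.3 against 39.4 CPM and Cxcl10 1004 against 632 CPM. In other T barcodes Cxcl10 differed alike, at 819 against 526 CPM (0.64, 0.54 to 0.73), and Igtp was 0.33 higher (-0.19 to 0.85). Ifng itself was near 0 in members, with 4 KO and 22 WT UMIs, 20 of the WT UMIs in 1 barcode. Of 25 proliferation genes 17 were higher and 0 lower, with a median of 0.71, and in other T barcodes the median was 0.55. These rested on few cells, as Birc5 was 1.09 higher from 12 KO and 16 WT barcodes, Cenpe 1.68 higher from 10 and 9, and Top2a 0.29 higher (-0.26 to 0.82) from 14 and 29.

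Some type 17 and lipid genes were lower in KO members, and some type 17 genes were higher. Of 12 type 17 genes 2 were higher and 3 lower, beside 10.9% and 11.9% of all measured genes. Their median was -0.26, and in other T barcodes 13 of 14 were lower with a median of -1.04. Il1r1, the interleukin-1 receptor, had 24.1 CPM in KO and 101 in WT members, from 7 and 45 barcodes, and Il23r 176 against 282 CPM. Il17a had 4 KO and 219 WT UMIs, of which 104 sat in a single WT barcode. The type 17 gene with the highest ratio, Il22, had 24 of its 24 KO UMIs in a single barcode. Of 15 lipid genes 5 were lower and 0 higher in members, with a median of -0.45. In other T barcodes 2 of 17 were lower and 3 higher, with a median of 0.21. Among those lower in members was Fabp5, a fatty acid carrier gene, at 336 CPM in KO and 662 in WT members. Another was Apoe, which is also on the list of macrophage markers. Apoe had 144 CPM in KO and 2001 in WT barcodes of the Il10 or Gzmb subset, and 110 against 346 in the other members. In other T barcodes the log2 ratio of Apoe was -1.50. The part of macrophage RNA in the lipid result was not tested. Tnfsf8 was 1.04 higher in KO members (0.77 to 1.32) at 389 against 189 CPM, and its receptor gene Tnfrsf8 1.22 lower. Hspa1a was 1.67 lower, and its level in free RNA was also lower in the KO library (156 and 368 CPM).

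Among the genes ranked over the whole table, single barcodes decided many. Of the 12 highest in KO members 6 had over 50% of their KO UMIs in 1 barcode (among them Klrd1, Crim1, Vcam1, Pparg and Igfbp7), and Crim1 had 61 of 92 in it. Those spread over more barcodes were Iigp1, Bcr (99.9 and 30.6 CPM, 21 and 28 barcodes, 23 of 58 KO UMIs in 1), Plagl1 (158 and 55.1 CPM), Abcb1b, Sh3bp5 (62.0 and 19.3 CPM, 22 and 21 barcodes) and Cenpe. Of the 12 lowest 3 had over 50% of their WT UMIs in 1 barcode (Ccl24, Ccl8 and Cryab), and Ccl3 had 168 of 374. The others were Gzma, Il17a, Cxcr6, Ermn (12.1 and 91.9 CPM, 6 and 42 barcodes), Ccr9, Hspa1a, Cxcl3 and Il1r1. Markers of other classes also differed between the members of each library. The neutrophil markers summed to 1883 CPM in KO and 4126 in WT members, the macrophage markers to 312 and 2421, with 3 of 11 at 0 in KO members, and the epithelial markers to 2990 and 2783. The endothelial and fibroblast markers ran the other way, at 307 CPM in KO and 73.5 in WT members for the endothelial ones, and 326 and 82.3 for the fibroblast ones. Of the endothelial markers 3 were measured and all 3 were higher in KO members. Only 1 of 118 KO members was past the limit for endothelial markers and 1 for fibroblast markers, and 0 of 216 WT members for either. Of the 178 endothelial marker UMIs of KO members 151 lay in the Il10 or Gzmb subset. Free RNA from empty droplets had 6365 CPM of the neutrophil markers in the KO and 9266 in the WT library, 2258 and 4191 of the macrophage markers, and 14610 and 12461 of the epithelial markers. It had 49.6 and 46.7 CPM of the endothelial and 543 and 404 of the fibroblast markers. Their part in the results was not tested. Over the alternatives run, Cxcr6 had log2 ratios of -2.72 to -2.26 and Iigp1 3.17 to 4.72. The alternatives include leaving out barcodes past the limit for other classes' markers and subtracting free RNA. Barcodes with fewer marker UMIs than the limit stayed in, so nothing about a cause is concluded from these ranges.

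**Figure D5:**
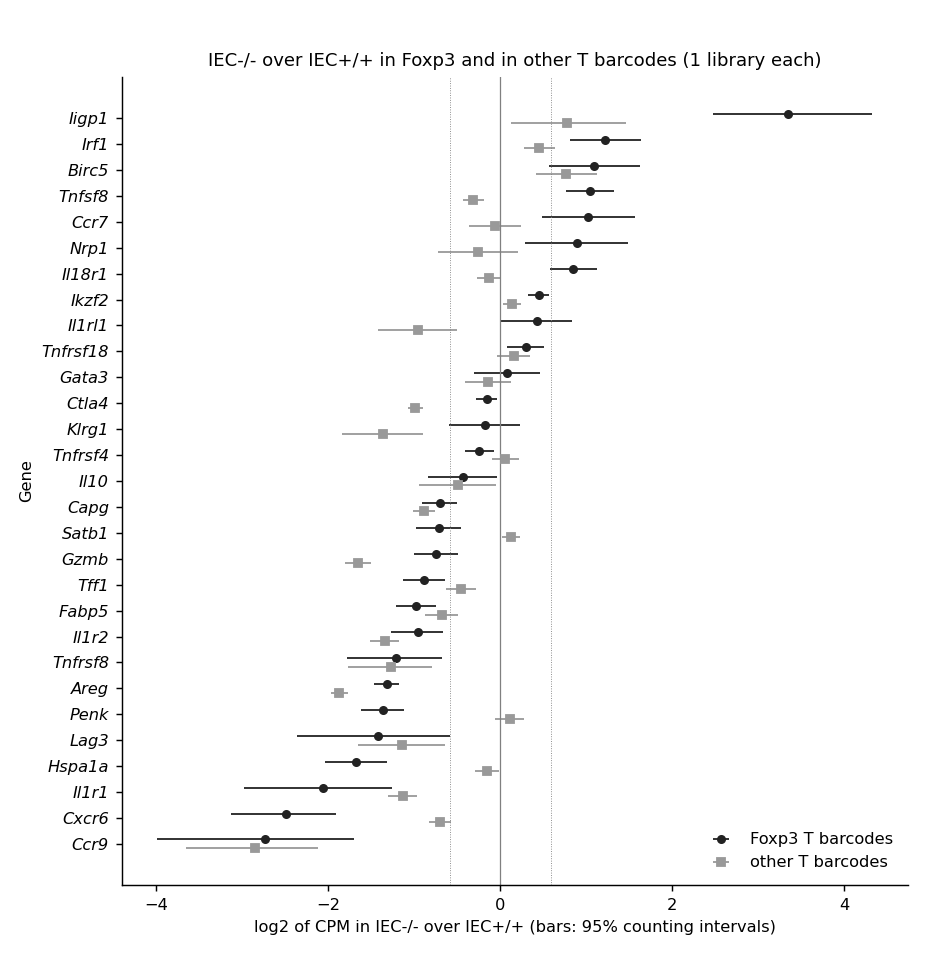
Log2 ratio of CPM in the IEC-/- over the IEC+/+ library for selected genes in Foxp3 T barcodes (black circles) and in other T barcodes (grey squares), with 95% counting intervals and dotted lines at 1.5-fold. Cxcr6 lay at -2.49 in Foxp3 and -0.70 in other T barcodes. Tnfsf8, Il18r1, Nrp1, Penk and Il1rl1 were among the genes on opposite sides of 0 in the 2 groups. In other T barcodes the intervals of Il18r1, Nrp1 and Penk crossed 0. The genes shown were chosen after their values were seen.

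Differences between the libraries were also computed inside the subsets, where some genes differed alike inside and outside and others did not. In the Il1rl1 or Klrg1 subset Ikzf2 was 0.43 higher in KO than in WT barcodes and 0.59 higher in the other members, and Il18r1 was 1.00 and 0.76 higher. Cxcr6 was 1.51 lower in KO than in WT barcodes of that subset (17 and 112 UMIs) and 3.48 lower in the other members (9 and 175 UMIs). Il10 was 1.91 lower in KO than in WT barcodes of the Il1rl1 or Klrg1 subset (7 and 61 UMIs) and 0.20 lower in the other members (65 and 130 UMIs). In the Il10 or Gzmb subset Tff1 was 1.78 lower in KO than in WT barcodes, at 167 against 571 CPM, and 0.37 lower in the other members. Il10 differed by -0.05 (-0.46 to 0.35) between KO and WT barcodes of the Il10 or Gzmb subset. A UMI of Il10 or Gzmb chose the barcodes of that subset, so this value follows in part from the selection and nothing is concluded from it. H2afz, a histone gene, was 0.82 higher in KO than in WT barcodes of that subset and 0.45 lower in the other members.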

How the data were processed

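Both tumour libraries were deposited as unfiltered gene by barcode matrices of UMI counts (10x Genomics version 3, Cell Ranger 4 per the file headers). The submitters' processing notes name Cell Ranger, Seurat and mm10, with no role for each. Aligner settings and the annotation release are not given in the sources used here. Raw counts were filtered, assigned and summed as the report states, with Python 3.11.15, numpy 2.4.6, scipy 1.17.1 and pandas 2.3.3. The members and gene lists were chosen with earlier results of these data known. Shares carry exact Clopper-Pearson intervals, CPM exact Poisson intervals and log2 ratios conditional binomial intervals, all at 95%, and a gene was measured at 20 or more UMIs over the groups compared. A count of 0 was set at 3. No doublet caller was run, and barcodes with markers of other classes were instead left out as an alternative. Genes named are the 7 given markers with Gzmb, Gsk3b, Cd4 and Cd8a, per list up to 6 with most UMIs and 4 widest ratios, and those ranked by the interval bound nearest 0 among genes with 50 UMIs and 30 CPM. Some genes that the rule names are not reported here. Further genes are said to be chosen after their values were seen. The interval code was tested on simulated data. Coordinates are from GENCODE on GRCm38. UMIs of overlapping genes cannot be told apart beyond the deposited assignment.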

Additional observations from a re-analysis of the deposited data

How the results depend on the processing

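No paired analysis was possible because each genotype has 1 library and no test was made. All 3 shares kept their direction, with log2 ratios of KO over WT of -0.86 to -0.63 for Foxp3, -0.71 to -0.24 for Il1rl1 or Klrg1, and -0.39 to -0.16 for Il10 or Gzmb. Shares of genes past the fold moved beyond 1.5 times in 12 cases. Without barcodes with other classes' markers, 0.443% were higher in the Il10 or Gzmb subset. With no Cd8a, Cd8b1 or Trdc UMI, 0.208% were higher and 0.346% lower in the Il1rl1 or Klrg1 subset, and with median-of-ratios scaling 0.147% were lower. With free RNA subtracted, 3.95% were higher in members than in other T barcodes, 0.629% higher and 0.629% lower in the Il1rl1 or Klrg1 subset, and 2.35% higher in the Il10 or Gzmb subset. With a 50 UMI minimum, 6.81% were higher and 7.55% lower in KO members, and 0.224% and 0.134% in the Il1rl1 or Klrg1 subset, where fewer genes are measured. Between genotypes, Cryab reversed to 0.38 without the 3 deepest barcodes (chosen after seeing the data). Without the top 5% by depth Ccl24 was 0.0038, Ccl3 0.097 and Cryab 0.59. Cryab was 0.39 under the stricter T rule, 0.34 at 2 Foxp3 UMIs and 0.34 without other-class barcodes, and as a mean over barcodes Cd8a was -0.096 and Ifng 0.91, with Ifng at 2.004 without the top 5%. In the subsets Thbs1 (Il1rl1 or Klrg1, KO) was -1.06 under the stricter T rule. Cxcl1 (Il10 or Gzmb) was -0.80 in the KO library under that rule, -0.98 without other-class barcodes and -0.81 without the top 5%, and -0.033 in the WT library without the top 5%. Ifitm3 (Il10 or Gzmb, WT) was -0.12 without other-class barcodes. The cause was not tested. Depth limits the genes from few members, and 1 library per genotype limits every comparison between genotypes.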
